A study of Mus musculus with 17 samples.

Results

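The IkB proteins and the feedback inhibitors of NF-kB were followed as a group of 9 genes through 3 stages of spleen B cell development in wild-type (WT) and p52Ki mice. The genes were Nfkbia, Nfkbib, Nfkbie, Bcl3, Nfkbiz, Nfkbid, Tnfaip3, Tnip1 and Cyld, taken by gene name from the 55536 rows of the deposited counts table. All 9 were found and all 9 were among the 15352 genes that passed the filter on low counts. RNA was taken from B cells sorted as naive, as activated and from the germinal centre (GC), with 3 libraries per group of genotype and stage except for p52Ki GC cells, which had 2. The p52Ki mice carry a knock-in of p52, the NF-kB subunit that Nfkb2 encodes, and by its title the series asks what p52 bound to ETS1 does when germinal centres form. The sources used here do not give the allele's construction, the strain, the age of the mice, any immunisation or the sorting gates. A knock-in keeps the gene, so its counts do not check the genotype labels.

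NF-kB transcription factors are dimers of Rel, RelA, RelB, p50 and p52. In resting cells the classical IkB proteins hold these dimers in the cytoplasm until IkB kinase (IKK) marks the IkB for destruction. The freed dimers switch on many genes, among them the inhibitors themselves, which closes a negative feedback loop. Nuclear IkB proteins such as BCL3 instead bind p50 or p52 dimers on DNA and alter what they transcribe. A20, ABIN1 and CYLD act further up, by removing or binding the ubiquitin chains on which IKK is activated. In germinal centres B cells proliferate, hypermutate their immunoglobulin genes and compete for help from T cells, and most GC B cells are known to have little nuclear NF-kB except when they receive help signals.

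The stretches of DNA just before the transcription start are shown for Nfkbia, Nfkbie and Nfkbid because these inhibitors changed between stages and their windows hold the kB consensus, the 10-base site that NF-kB dimers recognise. The 250 bases before each start were read on the gene's strand from the RefSeq promoter table for GRCm38.p6, which had entries for 8 of the 9 genes, and the consensus was searched on both strands, overlaps counted. Capitals mark its matches.
Nfkbia, chr12:55492648-55492897, minus strand: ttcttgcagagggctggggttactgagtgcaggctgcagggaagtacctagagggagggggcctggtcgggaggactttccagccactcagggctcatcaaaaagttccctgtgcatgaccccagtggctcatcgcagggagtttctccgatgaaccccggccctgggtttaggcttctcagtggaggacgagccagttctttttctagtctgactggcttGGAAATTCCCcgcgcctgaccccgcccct
Nfkbie, chr17:45555450-45555699, plus strand: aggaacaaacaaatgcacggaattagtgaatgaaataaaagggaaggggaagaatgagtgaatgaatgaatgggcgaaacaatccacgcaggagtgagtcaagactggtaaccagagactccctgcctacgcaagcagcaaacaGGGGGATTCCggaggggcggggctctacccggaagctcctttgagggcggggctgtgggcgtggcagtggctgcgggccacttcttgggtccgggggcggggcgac
Nfkbid, chr7:30422156-30422405, plus strand: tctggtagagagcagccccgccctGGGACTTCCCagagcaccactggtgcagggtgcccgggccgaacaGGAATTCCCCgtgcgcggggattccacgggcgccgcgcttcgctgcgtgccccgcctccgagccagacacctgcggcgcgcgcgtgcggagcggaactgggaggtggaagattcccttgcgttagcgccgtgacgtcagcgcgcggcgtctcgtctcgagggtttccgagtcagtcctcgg

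The match before Nfkbia, GGAAATTCCC, lies 29 to 20 bases upstream of the start. That of Nfkbie, GGGGGATTCC, lies 106 to 97 bases upstream. Nfkbid has 3 starts in the table, and both of its matches, GGGACTTCCC and GGAATTCCCC, belong to the start printed here. Of the other genes, Cyld had 1 match, GGAAAGTCCC. Tnfaip3 had 2, GGGACACCCC and GGAAATCCCC, before 1 of its 2 starts. Tnip1 had 3 that overlap each other around GGGAATTCCC. No match lay in these windows of Bcl3 and Nfkbib, and Nfkbiz was not in the table. Matches did not sort the genes by the WT stage calls given below. Tnfaip3, Tnip1 and Cyld had matches and no call, and Bcl3 had a call and no match. The consensus was thus in 6 of the 11 windows of these genes, which belong to 6 of 8 matched genes, against 3.9% of all 32851 promoters in the table. The ETS motif was searched in the same windows and on both strands, but only as the exact string CCGGAAGT, while the kB consensus allows alternative bases. That string was in no window of the 8 matched genes and in 2.88% of all promoters. At that share, no match in 11 windows says little about these genes. A match is a string of letters and does not show that a factor binds there.

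Total counts ran from 4067281 to 10036347 per library. Genes with a count numbered 11232 in WT GC replicate 3 and 11390 and 13044 in p52Ki GC replicates 2 and 5, against 16745 to 19672 in the other 14 libraries. Both p52Ki GC libraries are thus sparse, and WT GC replicate 3 is the sparse library of its group. Of 6520 genes at 20 CPM or more in WT GC replicates 1 and 4, 303 (4.65%) had no count in WT GC replicate 3, so a level near 0 in a sparse library can be a transcript lost before counting. Markers of B cells summed to 9220 to 20300 CPM in all libraries. Of the markers of GC B cells, Bcl6 (75 to 139 CPM in WT GC and 73.6 to 89.4 in p52Ki GC libraries), Fas (145 to 316 and 141 to 299) and Rgs13 (277 to 592 and 297 to 769) overlapped between the genotypes. S1pr2 (153 to 297 and 48 to 68.9), Gcsam (377 to 617 and 129 to 158), Mybl1 (89.6 to 159 and 26.2 to 77.9) and the proliferation marker Mki67 (338 to 470 and 123 to 222) were lower in both p52Ki GC libraries than in the 3 WT ones. In naive and activated libraries these genes reached at most 98.9 CPM (Rgs13). Titles number the WT libraries 1 to 12 and the p52Ki libraries 19 to 30, and a batch in that order cannot be told apart from genotype. No label says that replicates came from separate mice, so p-values speak of the spread between the sampled libraries only. For each gene that spread is 1 estimate shared by the 6 groups, while GC libraries mostly differed more among themselves. Chi-square per degree of freedom between libraries was 23.7 to 116 in WT GC and 71.8 in p52Ki GC cells. It was 7.89 to 31 in naive and 19.7 to 59.3 in activated cells. Intervals and p-values of GC comparisons may thus be too small. In sorted bulk cells, fewer cells of a type and less RNA per cell cannot be told apart.

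Levels differed widely between the inhibitor genes. Per kilobase of exon, Nfkbia stood at 233 ± 7.74 CPM per kb in WT naive cells (SD, n = 3). Nfkbid (51.8 ± 7.11) and Nfkbie (40 ± 3.32) followed, and then Nfkbib (28.2 ± 2.21) and Bcl3 (25.6 ± 2.2), which lay within their spread of each other. Tnip1 (9.59 ± 1.82), Cyld (8.95 ± 1.34), Nfkbiz (7.81 ± 1.43) and Tnfaip3 (7.35 ± 1.36) formed a lowest group whose libraries overlapped. In WT GC cells Nfkbia was still the highest, at 127 ± 34.9 CPM per kb, while Nfkbib (26.8 ± 3.79) and Nfkbie (22.2 ± 0.686) stood above Nfkbid (12 ± 6.37). Nfkbiz was the lowest there, at 3.12 ± 1.2. In p52Ki GC cells Nfkbia reached 330 ± 52.6 CPM per kb (n = 2) and Tnfaip3 was the lowest at 3.59 ± 1.9.

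**Figure D1:**
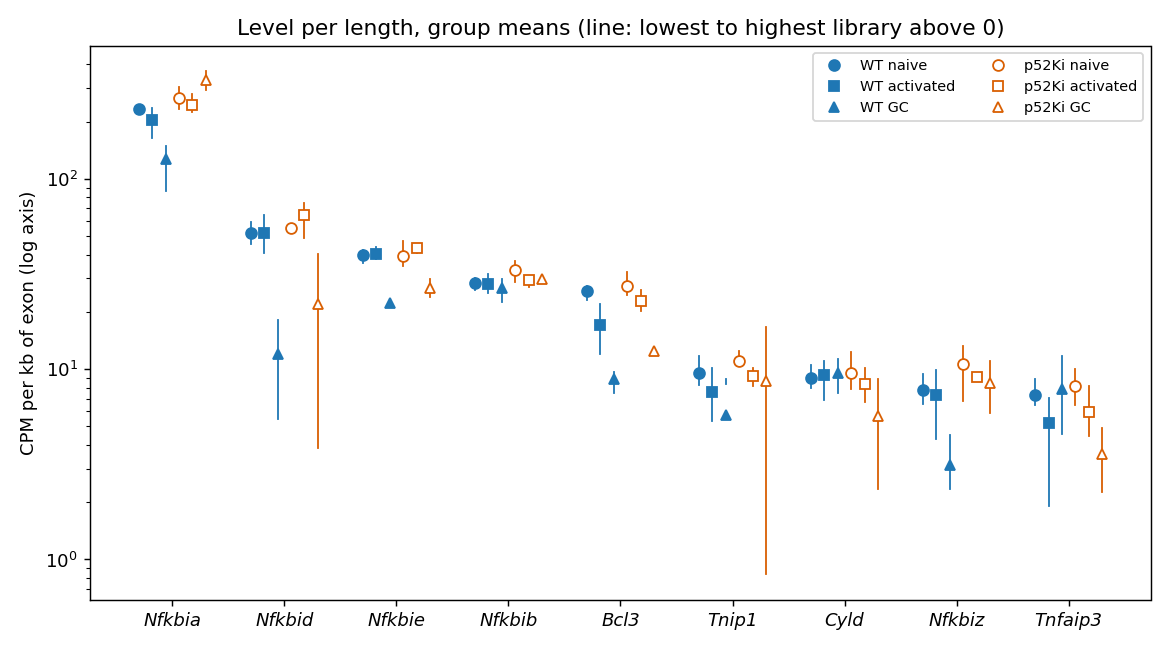
Mean level per kilobase of exon (CPM per kb, log axis) of the 9 genes in the 6 groups, with a line from the lowest to the highest library. Nfkbia lies above all others in every group, and the 1 library of WT GC cells with no count for Tnip1 cannot be drawn on the log axis.

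Across the stages of WT cells, 5 of the 9 genes were lower in GC than in naive cells by edgeR's quasi-likelihood test at an adjusted p under 0.05. They were Nfkbia, Nfkbie, Bcl3, Nfkbiz and Nfkbid, that is 2 of 3 classical IkB genes and all 3 nuclear ones, and none was higher. Of all tested genes 15.9% were called in that comparison and 7.47% were called lower. Nfkbib and the 3 ubiquitin regulators Tnfaip3, Tnip1 and Cyld were not called. The median of the 9 log2 differences was -0.85, against -0.16 over all tested genes. From activated to GC cells in WT, 3 of 9 were lower (Nfkbie, Nfkbid and Bcl3), where 13.6% of all genes were called and 7.75% were lower; the medians were -0.67 and -0.13. Both comparisons use the same 3 GC libraries.

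In p52Ki cells 1 of the 9 genes passed the test in each GC comparison. Bcl3 was lower in GC than in naive cells, where 29.1% of all genes were called and 20.4% were lower, and Nfkbie was lower in GC than in activated cells, where 25.6% were called and 19.3% were lower. The medians of the 9 were -0.56 and -0.58, against -0.42 and -0.41 over all genes. Between genotypes, Nfkbia and Nfkbiz were higher in p52Ki than in WT GC cells, 2 of 9 genes, where 16% of all genes were called and 3.75% were higher. The median of the 9 in that comparison was 0.48, against -0.32 over all genes. None was called between genotypes in naive or activated cells, or between activated and naive cells of either genotype.

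**Figure D2:**
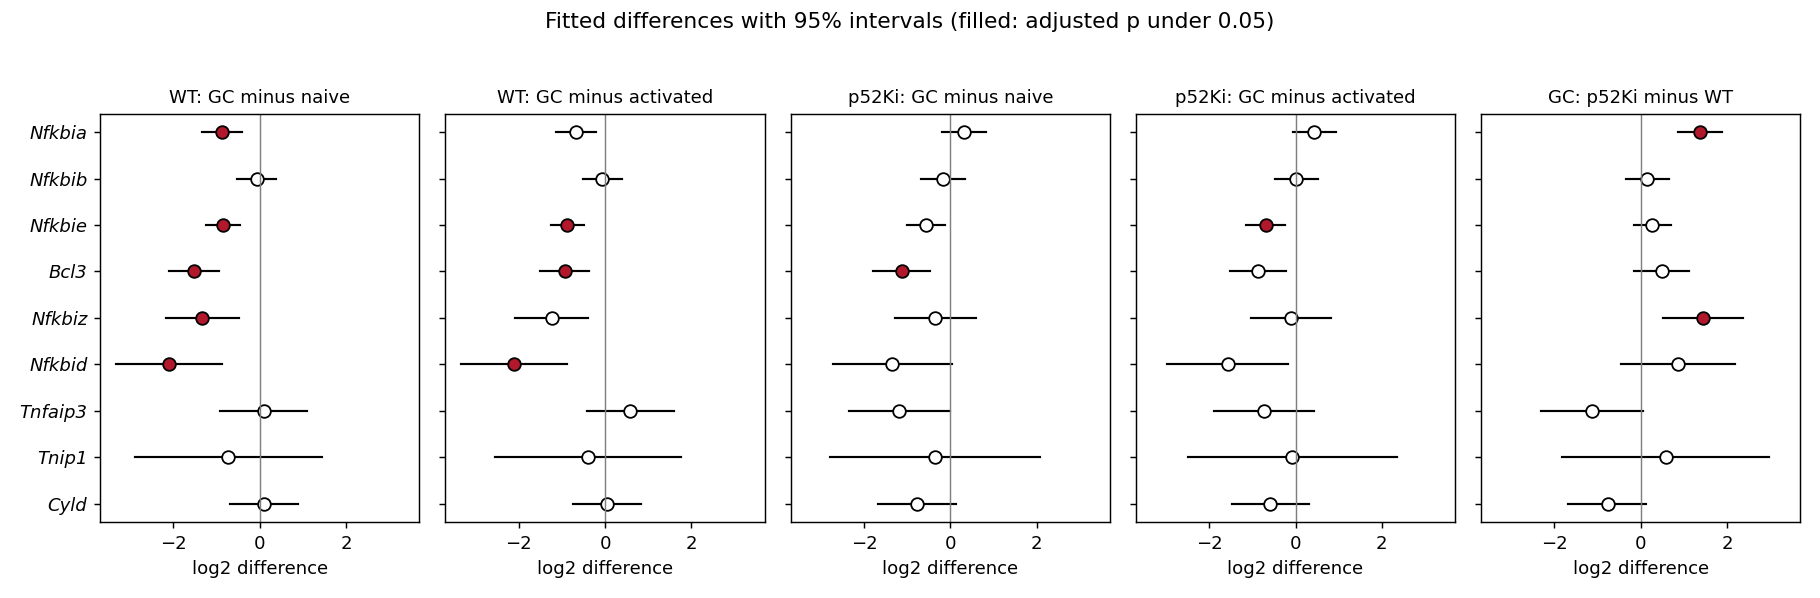
Log2 differences of the 9 genes with 95% intervals in 5 comparisons with GC cells, filled where the adjusted p was under 0.05. In WT GC minus naive 5 points are filled, all left of 0, and Nfkbia and Nfkbiz are the filled points in p52Ki minus WT.

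The classical IkB genes come first. Nfkbia encodes IkB-alpha, the main fast inhibitor, and lies on chromosome 12, 55489410 to 55492647, minus strand (ENSMUSG00000021025, GRCm38). In WT replicates 1, 3 and 4 it was at 386, 362 and 378 CPM in naive, 379, 264 and 335 in activated and 140, 233 and 241 in GC cells. In p52Ki replicates 2, 3 and 5 it was at 410, 491 and 376 CPM in naive and 361, 450 and 370 in activated cells, and in replicates 2 and 5 at 592 and 472 in GC cells. All 3 WT GC libraries lay below every other library of either genotype, and p52Ki GC replicate 2 was the highest of the 17. The libraries of WT and p52Ki GC cells did not overlap.

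Nfkbia was 1.38 higher on the log2 scale in p52Ki than in WT GC cells (SE 0.238, 95% interval 0.87 to 1.89, adjusted p = 0.00192), from means of 204 ± 56.2 (SD, n = 3) and 532 ± 84.8 CPM (n = 2). Both p52Ki libraries were above all 3 WT libraries. WT GC replicate 3, sparse like the p52Ki pair, had 233 CPM, and with it as the sole WT GC library the difference was 1.2 (adjusted p = 0.00798). The call held without each of the 17 libraries in turn, at 1.17 to 1.61. It was lost in a fit of the GC libraries alone (1.46, adjusted p = 0.579) and with limma's quality weights (1.4, adjusted p = 0.182), fits in which 0 and 15 of all genes were called.

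In WT cells Nfkbia differed by -0.88 on the log2 scale between GC and naive cells (SE 0.217, interval -1.34 to -0.41, adjusted p = 0.0119). Without WT naive replicate 1 it was -0.76 (adjusted p = 0.0869). The difference from activated cells was -0.67 (adjusted p = 0.0516) and was called without WT activated replicate 3 (-0.81, adjusted p = 0.0397), WT GC replicate 3 (-0.79, 0.0422) or either p52Ki GC library (-0.68, 0.0392 each). In p52Ki cells the difference of GC from naive was 0.32 (interval -0.19 to 0.83, adjusted p = 0.327) and from activated 0.43 (interval -0.07 to 0.94, adjusted p = 0.191). Tested as a difference between genotypes, the step from naive to GC cells differed by 1.2 (SE 0.322, interval 0.51 to 1.88, adjusted p = 0.0429), 1 gene of 9 where 5.76% of all genes were called and 0.84% were higher.

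That last call was close to the threshold and was lost without any 1 of 13 libraries. These were WT naive replicates 1, 3 and 4, WT activated 1 and 4, WT GC 1, p52Ki naive 2, 3 and 5, p52Ki activated 2, 3 and 5, and p52Ki GC 2, with Nfkbia at 0.98 to 1.31 and adjusted p of 0.0525 to 0.1. With the replicate block it was 1.31 (adjusted p = 0.0946). For the step from activated to GC cells the Nfkbia difference was 1.11 (SE 0.322, adjusted p = 0.0542). None of the 9 genes was called there by edgeR, where 5.95% of all genes were. Of the 9, 1 had an unadjusted p under 0.05, where 23.6% of all genes did. DESeq2 called 1, Nfkbia at 1.19 (adjusted p = 0.0125). Without WT activated replicate 3 (adjusted p = 0.0445), WT GC replicate 3 (0.0158) or p52Ki GC replicate 5 (0.0255), Nfkbia was called there as well.

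Nfkbib encodes IkB-beta, a slower inhibitor (chromosome 7, 28758251 to 28767512, ENSMUSG00000030595). Its level lay between 48.9 CPM (WT GC replicate 1) and 79.9 (p52Ki naive replicate 3) over the 17 libraries, and the 6 groups overlapped. The p52Ki minus WT difference in GC cells was 0.15 on the log2 scale (interval -0.35 to 0.66, adjusted p = 0.689), and the WT difference of GC from naive was -0.07 (interval -0.53 to 0.38). The gene overlaps Ccer2 and Sirt2 on the opposite strand, and the sources used here give no strand setting for the counting, so their reads cannot be told apart where they overlap.

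Nfkbie encodes IkB-epsilon, a delayed inhibitor that is prominent in B cells (chromosome 17, 45555703 to 45563169, ENSMUSG00000023947). Its CPM were 130, 126 and 110 in WT naive, 115, 134 and 122 in WT activated and 69.5, 65.4 and 67.9 in WT GC libraries. For p52Ki they were 107, 111 and 144 in naive, 124, 135 and 136 in activated and 90.8 and 72.5 in GC libraries. All 5 GC libraries lay below all 12 naive and activated ones, and the p52Ki pair lay above the 3 WT GC libraries.

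In WT, Nfkbie differed by -0.85 between GC and naive cells (SE 0.185, interval -1.24 to -0.46, adjusted p = 0.00512) and by -0.87 between GC and activated cells (SE 0.185, adjusted p = 0.00542), calls that held without each library in turn. In p52Ki the GC minus activated difference was -0.69 (SE 0.209, interval -1.14 to -0.25, adjusted p = 0.026) and the GC minus naive difference -0.56 (interval -1 to -0.12, adjusted p = 0.0546). The first of these was lost without WT naive 1, WT activated 1, p52Ki activated 2, 3 or 5, or p52Ki GC 5, with Nfkbie at -0.54 to -0.67 and adjusted p of 0.0539 to 0.106, and with the replicate block (-0.71, adjusted p = 0.0717). Without p52Ki GC replicate 2 the second was called (-0.74, adjusted p = 0.0414). Between genotypes Nfkbie differed by 0.27 in GC cells (interval -0.16 to 0.71, adjusted p = 0.377), and the genotypes' steps from naive to GC cells differed by 0.29 (interval -0.29 to 0.87, adjusted p = 0.587).

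Among the nuclear IkB genes, Bcl3 encodes a co-regulator that binds p50 and p52 dimers (chromosome 7, 19808462 to 19822770, ENSMUSG00000053175; 2 antisense transcripts, Gm16175 and Gm16174, lie within it). WT libraries held 57.3, 64.8 and 67.9 CPM in naive, 29.8, 54.7 and 42 in activated and 24, 23.8 and 18.5 in GC cells. p52Ki libraries held 60.3, 61.8 and 79.7 in naive, 54.2, 50.1 and 64.7 in activated and 31.2 and 30.5 in GC cells. The 3 WT GC libraries were the lowest of all, and the p52Ki GC pair lay just above WT activated replicate 1.

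Bcl3 differed by -1.52 between GC and naive WT cells (SE 0.274, interval -2.1 to -0.94, adjusted p = 0.00135), and was called in all 26 other fits of that comparison at -1.63 to -1.4. The WT GC minus activated difference was -0.93 (SE 0.271, adjusted p = 0.0321). It was lost without WT naive 1 or 3, WT activated 3 or 4, WT GC 1 or 4, or p52Ki activated 2 or 3 (Bcl3 at -0.7 to -1, adjusted p of 0.0506 to 0.142), and with the replicate block (-0.9, adjusted p = 0.0844). In p52Ki cells Bcl3 differed by -1.12 between GC and naive cells (SE 0.311, interval -1.79 to -0.46, adjusted p = 0.0153; without p52Ki naive replicate 5, -0.98 and 0.0565) and by -0.87 between GC and activated cells (adjusted p = 0.0504). Leaving out WT activated replicate 3 or WT GC replicate 3 gave the latter an adjusted p of 0.0423 or 0.0385. The genotypes differed by 0.48 in GC cells (interval -0.15 to 1.12, adjusted p = 0.28), and their steps from naive to GC cells by 0.4 (interval -0.46 to 1.25, adjusted p = 0.616).

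Nfkbiz encodes IkB-zeta, a nuclear IkB protein that is induced by Toll-like receptor and interleukin-1 signals (chromosome 16, 55811375 to 55838899, ENSMUSG00000035356). Its CPM were 33.1, 47.1 and 37.5 in WT naive, 21.4, 38.9 and 49.7 in WT activated and 11.8, 22.6 and 12.5 in WT GC libraries. In p52Ki they were 60.2, 66.6 and 34.3 in naive, 45.1, 47.2 and 43.8 in activated and 55.2 and 29.4 in GC libraries. WT GC cells were low in all 3 libraries, the sparse replicate 3 being the highest of them, and both p52Ki GC libraries lay above the 3. WT GC replicate 3 stood just above WT activated replicate 1. Replicate 2 of the p52Ki GC pair lay within the range of the other p52Ki libraries, and replicate 5 lay below all of them.

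Nfkbiz was 1.44 higher on the log2 scale in p52Ki than in WT GC cells (SE 0.433, interval 0.52 to 2.36, adjusted p = 0.0364), from means of 15.6 ± 6.05 (n = 3) and 42.3 ± 18.3 CPM (n = 2). The call was lost without WT GC replicate 1 (1.27, adjusted p = 0.105), WT GC replicate 4 (1.3, 0.0998) or p52Ki GC replicate 2 (0.91, 0.211). It was also lost without WT naive 1 or 4, p52Ki naive 2 or p52Ki activated 2, with Nfkbiz at 1.44 to 1.49 and adjusted p of 0.0505 to 0.053. With WT GC replicate 3 as the sole WT GC library the difference was 0.91 (adjusted p = 0.265). Across WT stages Nfkbiz differed by -1.33 between GC and naive cells (SE 0.398, interval -2.18 to -0.48, adjusted p = 0.0331). That call was lost without any WT naive library, WT GC 1 or 4, or p52Ki activated 2 or 3 (-1.16 to -1.36, adjusted p of 0.0692 to 0.123), and with immunoglobulin genes removed (-1.23, adjusted p = 0.0536).

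Between GC and activated WT cells Nfkbiz differed by -1.24 (adjusted p = 0.0514), and was called without WT activated 1 (-1.43, 0.0433), WT GC 3 (-1.6, 0.0141), p52Ki GC 2 (-1.24, 0.0244) or p52Ki GC 5 (-1.24, 0.024). In p52Ki cells the GC minus naive difference of Nfkbiz was -0.35 (interval -1.28 to 0.59, adjusted p = 0.581). The step from naive to GC cells differed between genotypes by 0.98 (SE 0.583, interval -0.26 to 2.23, adjusted p = 0.342), so a difference in the stage change was not shown for this gene.

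Nfkbid encodes IkB-NS, a nuclear IkB protein needed for marginal zone and B-1 B cells and for antibody responses (chromosome 7, 30421732 to 30428746, ENSMUSG00000036931). WT naive libraries held 107, 118 and 140 CPM, WT activated 95.6, 118 and 152 and WT GC 28.6, 12.8 and 42.7. p52Ki naive libraries held 131, 136 and 121, p52Ki activated 166, 176 and 115, and p52Ki GC 94 and 9.02. All GC libraries lay below all others, but the p52Ki GC pair differed from each other by more than the WT GC range.

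In WT, Nfkbid had the largest stage difference of the 9 genes, -2.11 from both naive (SE 0.579, interval -3.34 to -0.87, adjusted p = 0.0218) and activated cells (SE 0.579, adjusted p = 0.0247). Without WT GC replicate 3, the lowest of the group, the differences were -1.74 (adjusted p = 0.0606) and -1.77 (0.0603). Calls were also lost without WT GC 1 (Nfkbid at -2.12 in both, 0.0544 and 0.065), without WT naive 3 or 4 against naive cells (-2.13 and -2, 0.0534 and 0.0648), and without WT activated 3 or 4 against activated cells (-2.13 and -1.92, 0.0527 and 0.0793). In p52Ki GC cells the differences of Nfkbid were -1.34 from naive (adjusted p = 0.132) and -1.57 from activated cells (adjusted p = 0.0898). Without p52Ki GC replicate 2 they were -3.86 and -4.09, the lowest of the 26 other fits, whose highest values were -0.28 and -0.43. Between genotypes in GC cells Nfkbid differed by 0.86 (interval -0.46 to 2.18, adjusted p = 0.354), and by 1.72 without p52Ki GC replicate 5. Over the 26 other fits it ran from -1.65 to 2.01, with the same sign in 23, so the direction was not settled.

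**Figure D3:**
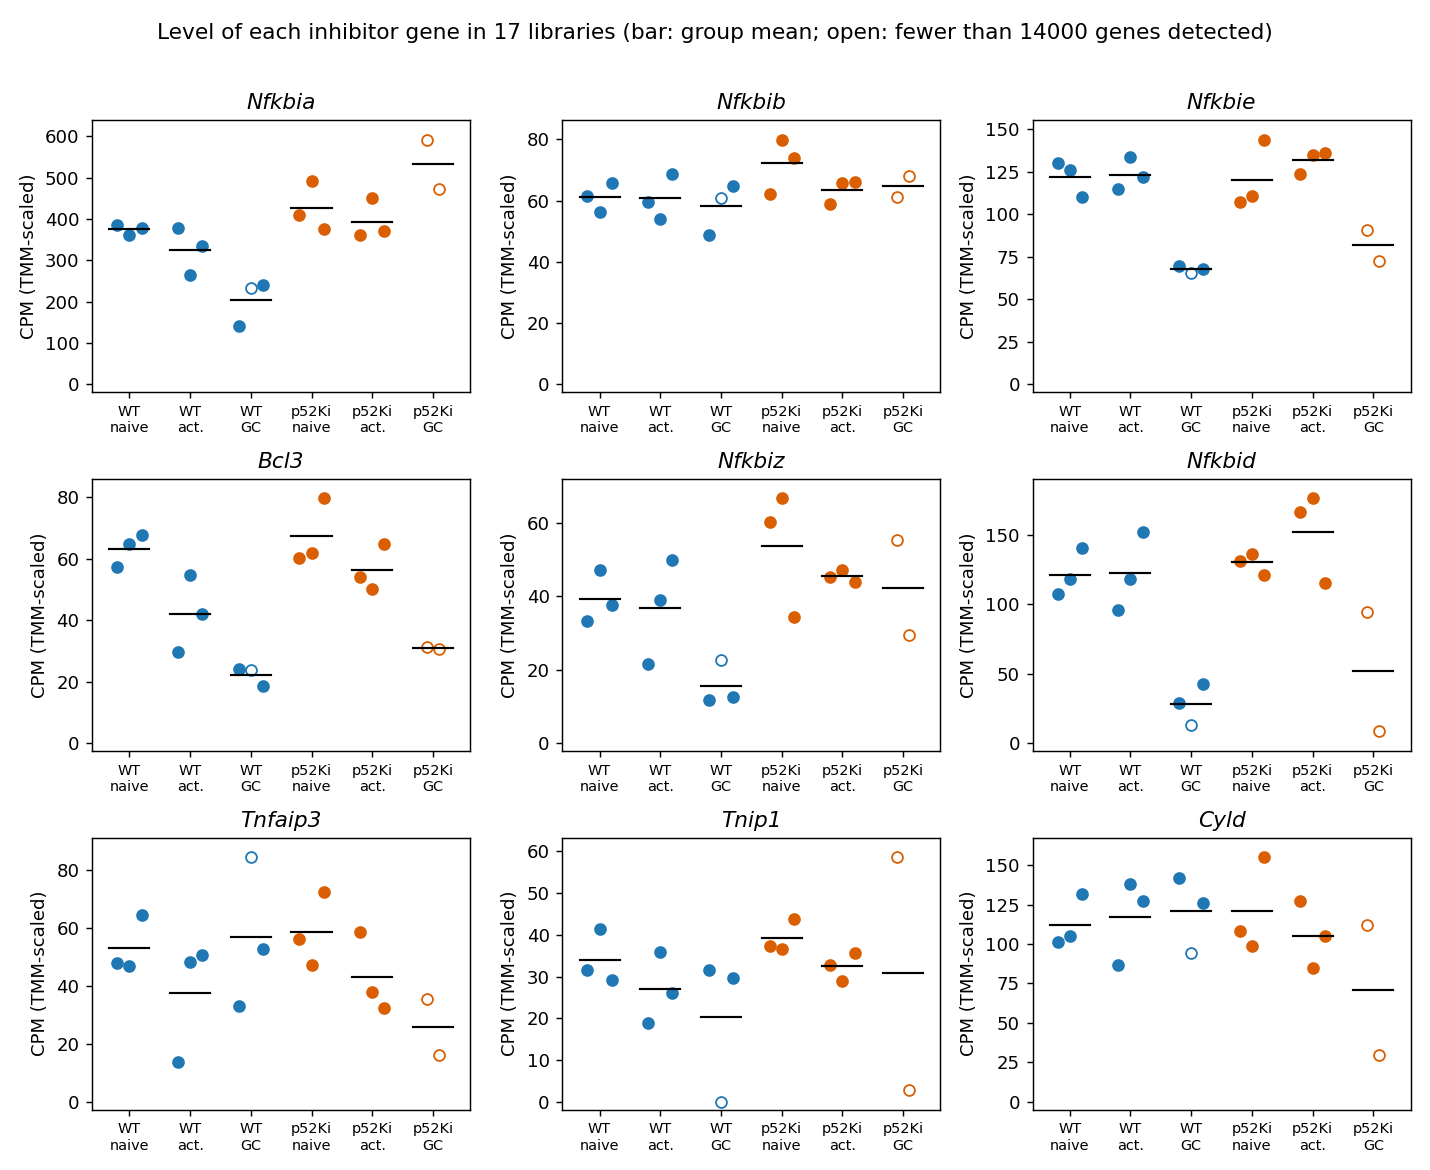
Level of each gene in CPM in the 17 libraries by group, with a bar at the group mean and open circles for the 3 sparse GC libraries. For Nfkbie and Nfkbid all 5 GC libraries lie below all 12 others, though Nfkbid in p52Ki GC replicate 2 (94 CPM) is next to WT activated replicate 1 (95.6 CPM), and Nfkbia and Nfkbiz lie higher in both p52Ki GC libraries than in the 3 WT GC libraries.

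The regulators of ubiquitin chains had no call in the main fit of any comparison, and their GC libraries were spread widely. In the other fits Cyld and Tnip1 were called only where a GC group was left with a sole library. Tnfaip3 encodes A20, which edits ubiquitin chains on signalling adaptors (chromosome 10, 19000910 to 19015657, ENSMUSG00000019850). WT naive libraries held 48, 46.9 and 64.4 CPM, with 13.8, 48.3 and 50.8 in activated and 33.1, 84.5 and 52.8 in GC libraries. Corresponding p52Ki values were 56.1, 47.1 and 72.5, then 58.8, 37.9 and 32.4, and 35.6 and 16.2 in GC cells. The WT GC range reached from below all naive libraries to above all others, and p52Ki GC replicate 2 lay within it. The p52Ki minus WT difference of Tnfaip3 in GC cells was -1.13 (SE 0.55, interval -2.31 to 0.04, adjusted p = 0.166), opposite in sign to Nfkbia, and was -0.61 without WT GC replicate 3 (adjusted p = 0.404).

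Tnip1 encodes ABIN1, which binds A20 and ubiquitin chains (chromosome 11, 54910785 to 54962917, ENSMUSG00000020400). Among naive and activated libraries it ranged from 18.9 to 43.7 CPM. The GC values were 31.5, 0 and 29.6 CPM in WT replicates 1, 3 and 4, and 58.6 and 2.95 in p52Ki replicates 2 and 5. The lowest and the highest values over all libraries were thus both in sparse GC libraries. The genotype difference of Tnip1 in GC cells was 0.58 with an interval of -1.82 to 2.98 (adjusted p = 0.758), too wide to tell a change in either direction.

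Cyld encodes a deubiquitinase of Lys63-linked and linear chains (chromosome 8, 88697028 to 88751945, ENSMUSG00000036712). It ranged from 85.1 to 155 CPM in naive and activated libraries. WT GC libraries held 142, 94.3 and 126 CPM and the p52Ki pair 112 and 29.7. Replicate 5 of p52Ki GC cells lay below every other library, and replicate 2 lay among the rest. The genotype difference of Cyld in GC cells was -0.77 (interval -1.68 to 0.13, adjusted p = 0.224). Without p52Ki GC replicate 2 it was -2.03, the lowest of the 26 other fits, whose highest value was -0.12. Without that replicate the p52Ki GC differences of Cyld from naive and activated cells were -2.04 and -1.84. These fits leave replicate 5, the lowest library, as the sole p52Ki GC library.

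Before the GC stage none of the 9 genes was called between genotypes. Between genotypes in naive cells edgeR called 0 of 9, where 0% of all genes were called. None of the 9 had an unadjusted p under 0.05, but only 0.521% of all genes did, so that count says little about the 9. DESeq2 and both limma voom fits called none. Activated cells gave the same counts of 0 by each tool. Of all genes, edgeR called 0.013% there, and 0.873% had an unadjusted p under 0.05. The p52Ki minus WT differences ran from -0.02 (Nfkbie) to 0.45 (Nfkbiz) in naive cells and from -0.15 (Cyld) to 0.42 (Bcl3) in activated cells, with all adjusted p at 1. For Nfkbia the intervals were -0.28 to 0.64 in naive and -0.19 to 0.73 in activated cells. For Nfkbiz they were -0.37 to 1.28 and -0.52 to 1.13.

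Activated and naive cells were compared within each genotype. In WT, plasma cell markers summed to 1970 to 8300 CPM in activated and 329 to 413 in naive libraries. Naive follicular markers summed to 3150 to 4250 and 7890 to 9320, and marginal zone and B-1 markers to 966 to 1950 and 899 to 1030. In p52Ki these sums were 1680 to 3320 and 287 to 334, 3750 to 4420 and 8460 to 9020, and 1290 to 1540 and 1140 to 1240. The part of such cells in these comparisons was not tested. In WT, edgeR called 0 of 9 genes, where 0.319% of all genes were called. Bcl3 alone had an unadjusted p under 0.05, with a difference of -0.58 (SE 0.268, unadjusted p = 0.0452, adjusted p = 0.86), and limma with quality weights called it (adjusted p = 0.0277) while DESeq2 called none. In p52Ki cells edgeR called 0 of 9, where 0.117% of all genes were called. None of the 9 had an unadjusted p under 0.05, where 4% of all genes did, and DESeq2 called none. The difference between genotypes of this step had 0 of 9 called, where 0% of all genes were. Again none had an unadjusted p under 0.05, where 0.423% of all genes did, and DESeq2 called none. For Nfkbia that difference was 0.09 (interval -0.56 to 0.74).

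Markers of other cell types and stages moved with the GC comparison between genotypes. The 7 markers of naive follicular B cells summed to 1510 to 1690 CPM in p52Ki GC libraries, against 625 to 792 in WT GC libraries and 7890 to 9320 in WT naive libraries. Those of marginal zone and B-1 cells summed to 572 to 685 against 261 to 317. Of these 8 genes Cr2 (376 to 422 against 131 to 164), Cd9 (67.7 to 82.4 against 1.02 to 14.9) and Bhlhe41 (23.8 to 27.1 against 1.96 to 8.76) were higher in both p52Ki libraries, while Dtx1 (27.4 to 56.7 against 39.1 to 84.5), S1pr3 (18 to 48 against 33.2 to 51.9), Cd1d1, Zbtb32 and Myof overlapped. The sum over the 12 genes of dendritic cells, monocytes and macrophages was 292 to 373 against 169 to 215. Among them, Lyz2 and Csf1r had no count in either p52Ki GC library, which can be loss of transcripts in sparse libraries. Cst3 (263 to 295 CPM against 120 to 183 in WT GC libraries) and C1qb (15.7 to 30.7 against 1.63 to 12.4) were higher in both. Cd68 overlapped (3.39 to 37.9 against 1.63 to 11.2). T cell markers summed to 0.82 to 38 CPM in p52Ki and 9.1 to 9.57 in WT GC libraries, and erythroid and platelet markers to 326 to 372 against 48.9 to 236. NK cell markers summed to 5.41 to 32.9 against 0 to 9.57. Plasma cell markers summed to 2820 to 2910 in p52Ki against 2970 to 6080 in WT GC libraries. Jchain, the largest part of that sum, overlapped (2330 to 2440 against 2240 to 5270), as did Derl3 (36.7 to 57.4 against 24 to 49.7), Slamf7 and Sdc1. Xbp1 (252 to 316 against 398 to 594) was lower in both p52Ki libraries. Prdm1 was at 0 in both and at 4.62 to 17.9 CPM in the 3 WT libraries, but a 0 in a sparse library can be a lost transcript. The part of these cell types in the higher Nfkbia and Nfkbiz of p52Ki GC cells was not tested. When detected genes entered the model as a covariate, a fit chosen after seeing the data, Nfkbia differed by 1.19 (adjusted p = 0.00907) and Nfkbiz by 1.14 (adjusted p = 0.119).

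Other genes of the pathway were read from 6 lists in the same fit. They were not followed in the leave-out or alternative fits, so how far their calls depend on the sparse GC libraries was not checked. Of all tested genes, 8.45% were called higher and 7.47% lower in WT GC than in naive cells, and 3.75% higher and 12.2% lower in p52Ki than in WT GC cells. Medians over all genes were -0.16 and -0.32 in these comparisons. Of the 5 NF-kB subunit genes, Nfkb2 (-1.5, SE 0.278, adjusted p = 0.00174) and Rel (-1.28, SE 0.363, adjusted p = 0.0255) were lower in WT GC than in naive cells, and none was higher. None of the 5 was called between genotypes in GC cells. The differences there were 0.83 for Nfkb2, 0.85 for Rel, 0.99 for Relb, -0.05 for Nfkb1 and -1.03 for Rela (adjusted p = 0.0515), and the list's median was 0.83 against -0.32 over all genes. Among 19 tested immediate early genes, which cells switch on within minutes of a signal, 8 were lower in WT GC than in naive cells and none was higher. Ier5 (-2.46), Jun (-2.83), Zfp36 (-1.75) and Ier2 (-2.28) had the smallest p, and the list's median was -1.43. Between genotypes in GC cells 3 of the 19 were higher and none lower. They were the B cell receptor response genes Egr3 (3.1, SE 0.678, adjusted p = 0.00877), Nr4a1 (3.51, SE 0.859, adjusted p = 0.015) and Nr4a3 (5.63, SE 1.45, adjusted p = 0.0186).

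Other targets of NF-kB did not share 1 direction. Of 27 tested, 3 were higher and 6 lower in WT GC than in naive cells, with a median of 0.19. The kinase gene Map3k8 (-2.03), the costimulatory ligand Icosl (-2.71) and the transcription factor Irf4 (-1.99) were lower, and Gadd45b (2.59), of the stress response, was higher. Between genotypes in GC cells 2 were higher, Ccl3 (4.57, SE 1.36) and Irf4 (0.97, SE 0.295), and 2 lower, Icam1 (-1.07, SE 0.241) and Stat5a (-4.87, SE 1.39), where 3.75% and 12.2% of all genes were, with a median of 0.66. Among 14 other negative regulators, Pdlim2, a nuclear ubiquitin ligase for RelA, was higher (0.97, SE 0.286, adjusted p = 0.0322) and Otulin, which removes linear ubiquitin chains, was lower (-0.87, SE 0.223, adjusted p = 0.0178) in p52Ki GC cells. In WT GC against naive cells 1 of the 14, Tax1bp1, a partner of A20, was lower (-1.23, SE 0.305, adjusted p = 0.012).

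Upstream of the IkB proteins, the IKK complex and its adaptors had 1 of 16 genes higher and 2 lower in p52Ki than in WT GC cells, where 3.75% and 12.2% of all genes were, with a median of -0.22 against -0.32 over all genes. Tab2, which brings the kinase TAK1 to ubiquitin chains, was higher (1.76, SE 0.364, adjusted p = 0.00608). Ripk1 (-3.78, SE 0.842) and Rbck1 (-1.72, SE 0.425), a subunit of the linear ubiquitin ligase, were lower. In the noncanonical arm, which makes p52, the kinase Map3k14 (-2.87, SE 0.631) and Traf2 (-1.07, SE 0.297) were lower and Traf3 (1.95, SE 0.532) was higher, 3 of 4 genes. In WT GC against naive cells the IKK list had Ube2n higher (1.53, SE 0.258) and Ikbkb lower (-1.48, SE 0.394), and the noncanonical list had none called.

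**Figure D4:**
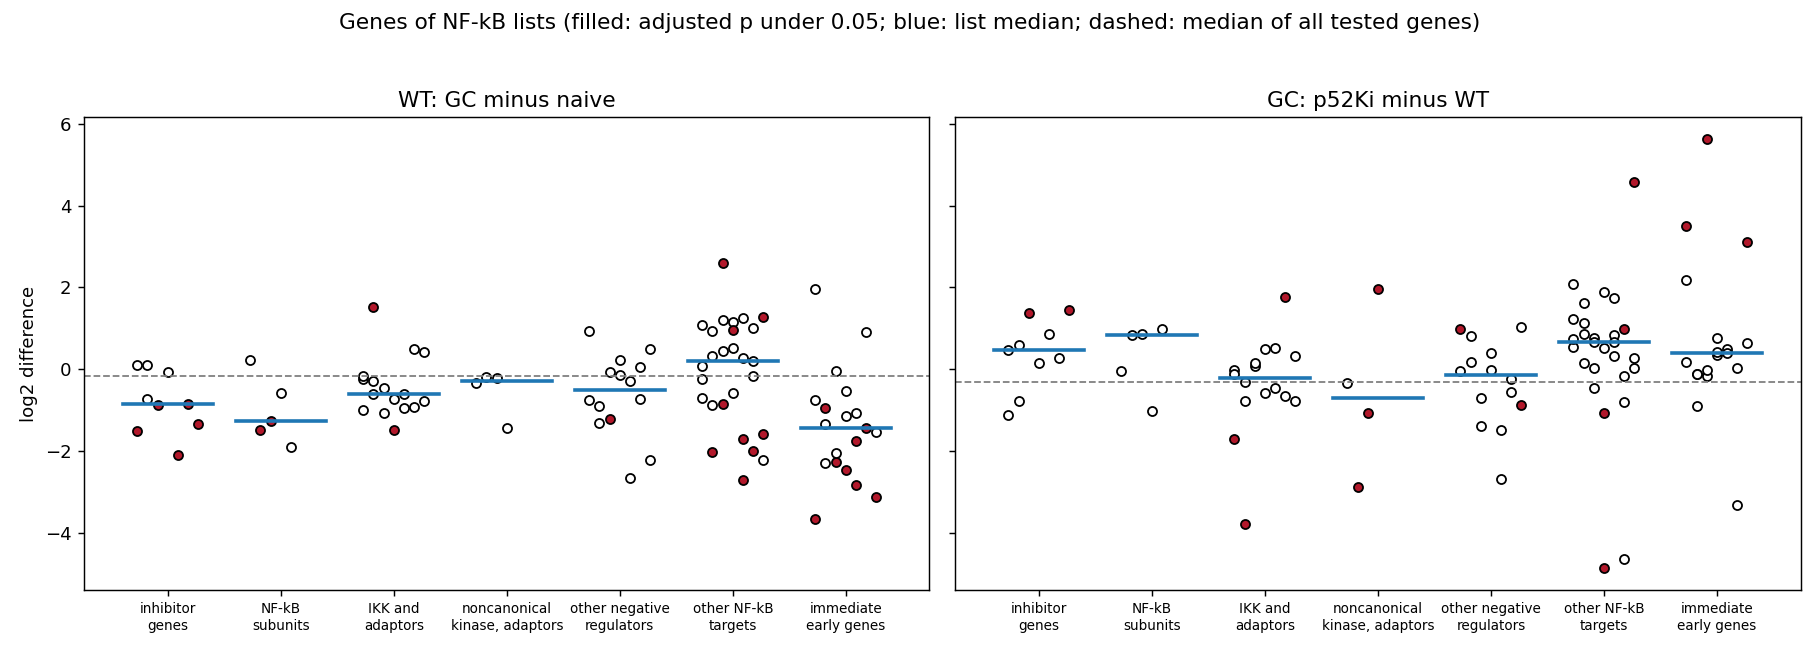
Log2 differences of the 9 inhibitor genes and of 6 pathway lists in WT GC minus naive cells and in p52Ki minus WT GC cells, filled where called, with list medians in blue and the median of all tested genes dashed. The inhibitor genes' median lies at -0.85 in the first and 0.48 in the second, against -0.16 and -0.32 over all genes.

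Over the 17 libraries, Pearson's r of log2(CPM + 1) was highest between Nfkbie and Nfkbid (0.856), Nfkbie and Bcl3 (0.855), and Nfkbid and Tnip1 (0.791), and was 0.759 between Nfkbia and Nfkbiz. It was lowest between Nfkbia and Cyld (-0.385). These values describe libraries that share groups, depth and detection. The level of Nfkbid followed the number of detected genes most closely (r = 0.664), followed by Tnip1 (0.643), while Nfkbia (-0.169), Nfkbiz (0.112) and Nfkbib (0.026) had the values nearest 0.

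The genes whose levels were most like each member were taken from the 8120 genes that averaged 10 CPM or more, by the same r over 17 libraries. For Nfkbia they were Snhg8 (0.894), Hagh (0.882) and Zfp36l1 (0.871), an RNA-binding protein gene. For Nfkbiz they were Gimap5 (0.875), Nr4a1 (0.871) and Mars2 (0.86). Bcl3 was most like Filip1l (0.959), Scd1 (0.95) and 9930111J21Rik2 (0.943), and Nfkbie most like Gucd1 (0.951), Edaradd (0.944) and H2-Q6 (0.943). Nfkbid followed Tk2 (0.972), Slfn8 (0.968) and Mcoln3 (0.967). Likeness was lowest for Nfkbib, whose best matches were Aldoa (0.657), Pqbp1 (0.644) and Cd74 (0.632).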

How the data were processed

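RNA from sorted spleen B cells was amplified by SMARTSeq v2 from very small inputs, per the labels' protocols, which name no molecular identifiers. The deposited values are raw counts per gene that the authors made on GRCm38, for which the submitters' processing notes name HISAT2 2.1.0, SAMtools 1.8 and, from Subread 1.6.2, featureCounts. The sources used here give no annotation release or strand setting. All 55536 identifiers matched GENCODE M21, from which coordinates and exon lengths were taken.

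Genes were kept by filterByExpr, counts were scaled by TMM, and the test was glmQLFTest after a robust glmQLFit (edgeR 4.0.16, R 4.3.3), with 1 coefficient per group over all 17 libraries. An adjusted p is, unless another tool is named, that of edgeR's quasi-likelihood test, Benjamini-Hochberg adjusted over the 15352 genes tested, and a gene was called under 0.05. CPM are scaled by TMM. Intervals are 95% and come from the same fit. The scripts were tested on simulated data. DESeq2 1.42.0 and limma 3.58.1 served as alternatives. All members are named in every comparison, up to 4 called genes with the smallest p from each pathway list, and the 3 genes most like each member.

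The members, the lists and the tests were chosen with earlier results of these data known. Replicate numbers are shared across stages of a genotype. Deviations of same-numbered naive and activated libraries correlated at 0.108 to 0.359, above 0.1 in every pair, so the numbers may pair those stages, as a hint from the data. Pairs with GC libraries lay between -0.287 and 0.088 and gave no such hint. The main fit used no pairing, while the replicate block and the random effect used the numbers at every stage, GC included. In the random-effect fit the consensus correlation of same-numbered libraries was -0.042. Libraries of a group differed by more than counting error (chi-square per degree of freedom 7.89 to 116), so none was treated as a repeat. The summed level of the GC marker list is not reported here.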

Additional observations from a re-analysis of the deposited data

Results flagged for a closer look

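The change of Nfkbia from naive to GC cells differed between the genotypes by 1.2 on the log2 scale (p52Ki minus WT) in a test of the difference itself. It was -0.88 in WT and 0.32 in p52Ki cells. By edgeR's quasi-likelihood test the adjusted p was 0.0429, and the difference was positive in all 27 other fits, with adjusted p from 0.00609 to 0.259. It was past the threshold in 10 of them.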

How the results depend on the processing

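No called difference of the 9 genes changed sign in any fit run. RLE scaling moved the median over all genes in WT GC minus naive from -0.16 to -0.26 and that in WT GC minus activated from -0.13 to -0.23. The counts below are of the 9 genes called. For p52Ki minus WT in GC cells (2 called) the count was 1 without the filter on low counts, with replicate number as a random effect in limma and with detected genes as a covariate, and 0 with limma's quality weights and in a fit of only the groups compared. For WT GC minus activated (3) it was 0 without the filter, 5 with DESeq2, quality weights or the covariate, and 1 with only the groups compared. WT GC minus naive (5) gave 2 without the filter, 4 without immunoglobulin genes and 3 with only the groups compared. For p52Ki GC minus activated (1) it was 0 without the filter, without immunoglobulin genes, with quality weights, with only the groups compared, with the replicate block and with the covariate, and 2 with DESeq2 or the random effect. For p52Ki GC minus naive (1) it was 0 without the filter, with quality weights, with only the groups compared and with the covariate, and 2 with DESeq2 or the random effect. WT activated minus naive (0) gave 1 with quality weights. The difference between genotypes of GC minus activated (0) gave 1 with RLE scaling and with DESeq2. That of GC minus naive (1) gave 0 with quality weights, with only the groups compared, with the replicate block and with the covariate. With WT GC replicates 1 and 4 left out, the sole WT GC library had no Tnip1 count, so counts from that fit are not given. Tnip1 then differed by 10.91 between genotypes in GC cells. Its differences between genotypes of GC minus activated and GC minus naive were 10.65 and 10.7. The covariate fit and the fit without WT GC replicates 1 and 4 were chosen after seeing the data. Leaving out each library in turn gave 1 to 3, 1 to 5, 3 to 5, 0 to 3 and 0 to 4 for the first 5 comparisons as listed, and 0 to 1 for both differences between genotypes.

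Over all genes, p52Ki minus WT in GC cells called 2450, against 3924 with DESeq2, 15 with quality weights and 0 with only the groups compared. The replicate block left the counts between naive and activated cells at 0 and the pairing is a hint from the data only. The WT GC minus activated count with the replicate block was 2. Where left-out libraries leave WT GC or p52Ki GC with 1 sample, that sample is assumed to vary like the other groups. Tnip1, with 1 GC library at 0 counts, cannot be read at this depth of detection.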
